A study of Mus musculus with 17 samples.

Results

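The interferon-stimulated genes are the transcripts that cells switch on after type I or type II interferon has bound its receptor. A set of 41 of them, listed by symbol and matched to the gene identifiers of the count tables, was followed through all 17 libraries of the series, out of 53313 gene identifiers that all libraries share. All 41 were found. The list names genes by their known induction by interferon and uses no threshold on measured values. It was written with earlier results of these data known. RNA had been sequenced from 8 cultures of mouse primary tubular epithelial cells (PTEC) and from 9 mouse kidneys. The PTEC had been grown from collagenase-digested kidneys of wild-type mice, as tubular fragments that were sieved and plated. Non-senescent PTEC (n = 4) were harvested at day 6 with no irradiation. Senescent PTEC (n = 4) were harvested at day 16 after 10 Gy of γ-irradiation given at confluence. Irradiation and the longer culture therefore changed together, and their parts cannot be told apart. The labels do not say whether the cultures of a group came from different animals, so p-values in PTEC measure the spread between these cultures only. The kidneys came from untreated male wild-type mice of 3, 12 and 24 months (n = 3 mice at each age), and RNA was taken from part of the right kidney, which holds all cell types of the organ. The strain of all mice is C57BL/6Rj in the labels and C57BL/6JRj in the methods of the study.

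Interferons bind receptors that carry the kinases JAK1, JAK2 and TYK2, and these phosphorylate transcription factors of the STAT family. STAT2 is part, with IRF9, of a complex that binds the interferon-stimulated response element, while other STAT complexes bind the gamma-activated sequence. The genes so induced include sensors of foreign RNA, nucleases, GTPases, ubiquitin-like modifiers and the transcription factors that keep the response going. Cells can start the pathway on their own when DNA or RNA in the cytosol triggers the sensors cGAS, RIG-I or MDA5 and interferon is made.

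Promoters were read first, because the response element is what these genes are known to share. RefSeq (GRCm38.p6) gave a promoter of 250 bases before and 50 bases after the start for 33 of the 41 members. None was found for Oas2, Usp18, Mx1, Mx2, Parp9, Parp14, Ifi27 and Rtp4. The core of the response element was searched as GAAA, any 2 bases and GAAA on either strand, which reads TTTC, any 2 bases and TTTC on the other, and overlapping matches were allowed. It occurred in 17 of the 33 member promoters (51.5%), beside 3.99% of all 27025 genes with a promoter. Of 38 other interferon-inducible genes with a promoter, 55.3% held it. The core of the gamma-activated sequence, TTCNNNGAA, reads the same on both strands and occurred in 12 of the 33 (36.4%), beside 9.55% of all genes. Of the 38 other interferon-inducible genes, 13.2% held it. Among genes with a promoter it occurred in 8.04% of those higher in senescent PTEC and 8.22% of all tested there. A match says that these letters are present, not that a factor was bound. Promoters of 4 members are shown with 250 bases before the start and the response element core in capitals. Ifit1 and Gbp7 are the members with the motif whose transcripts differed most and least between senescent and non-senescent PTEC. Isg15, with its core in 3 overlapping copies, and Oas3, the member called in kidneys, were added after their values had been seen.
Ifit1, chr19:34640639-34640888, plus strand: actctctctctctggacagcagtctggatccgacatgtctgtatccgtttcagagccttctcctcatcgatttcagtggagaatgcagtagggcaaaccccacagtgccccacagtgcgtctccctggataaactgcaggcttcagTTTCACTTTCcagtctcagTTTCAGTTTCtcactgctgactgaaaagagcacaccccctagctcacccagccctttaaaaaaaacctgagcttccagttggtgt
Isg15, chr4:156200819-156201068, minus strand: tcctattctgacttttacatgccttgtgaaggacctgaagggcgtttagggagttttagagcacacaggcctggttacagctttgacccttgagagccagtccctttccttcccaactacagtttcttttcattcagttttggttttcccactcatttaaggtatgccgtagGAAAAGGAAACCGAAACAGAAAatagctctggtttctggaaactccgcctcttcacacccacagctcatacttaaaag
Oas3, chr5:120777660-120777909, minus strand: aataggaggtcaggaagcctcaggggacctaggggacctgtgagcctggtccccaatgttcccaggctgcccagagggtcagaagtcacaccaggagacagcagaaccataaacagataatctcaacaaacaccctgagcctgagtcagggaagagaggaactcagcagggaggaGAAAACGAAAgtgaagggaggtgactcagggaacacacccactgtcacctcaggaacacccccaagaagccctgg
Gbp7, chr3:142530086-142530335, plus strand: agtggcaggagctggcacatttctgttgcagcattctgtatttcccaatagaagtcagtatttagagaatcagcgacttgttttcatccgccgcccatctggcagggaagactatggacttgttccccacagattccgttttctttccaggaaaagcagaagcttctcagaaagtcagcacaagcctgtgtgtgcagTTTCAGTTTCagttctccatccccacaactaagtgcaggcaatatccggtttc

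In Ifit1 the matches begin 104 and 85 bases before the start, and in Gbp7 the single match begins 53 bases before it. The 17 members with a match had a median log2 fold change of 1.94 in senescent PTEC, with a range from 0.36 to 4.56. The 16 tested members with a promoter and no match had a median of 0.85, with a range from -0.67 to 4.65, so the ranges overlapped widely. Among all genes higher in senescent PTEC, 5.03% of those with a promoter held the motif, beside 3.62% of all genes tested there.

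Between 26963442 and 35409144 reads per library were counted on genes in PTEC and between 37311247 and 66894790 in kidneys. Values are given as CPM, counts per 1000000 reads scaled over all 17 libraries with edgeR's TMM method. Cultures were labelled proximal tubular cells, and 8 of 12 proximal tubule markers passed the filter on low counts in PTEC. Their summed level was 221 to 695 CPM in non-senescent and 146 to 285 CPM in senescent PTEC, far below the 48780 to 64070 CPM of whole kidneys, and 5 of the 8 were lower in senescent PTEC. Summed leukocyte markers (12 genes) were at 49.1 to 64.8 CPM in non-senescent and 32.3 to 45.9 CPM in senescent PTEC. Macrophage markers (13 genes) were at 99.5 to 147 and 68.6 to 223 CPM, of which the upper value lies within the range of 3-month kidneys, and 2 of 11 tested were lower in senescent PTEC. B and plasma cell markers (8 genes, none tested) were at 0.0503 to 0.249 and 0.562 to 0.801 CPM and neutrophil markers (7 genes) at 0.503 to 0.964 and 0.126 to 0.255 CPM. T and NK cell markers (13 genes, none tested) were at 0.203 to 0.732 and 0.1004 to 0.455 CPM. The T cell gene Cd3e was at 0 in 7 of the 8 cultures, and the plasmacytoid dendritic cell gene Siglech was at 0 in all 8. All 5 markers of plasmacytoid dendritic cells summed to 0.201 to 0.840 CPM in non-senescent and 1.10 to 2.17 CPM in senescent PTEC, and 2 of 3 tested, Ly6d and Pacsin1, were higher. Fibroblast and pericyte markers summed to 12.6 to 81.0 CPM in non-senescent and 88.1 to 321 CPM in senescent PTEC. Of 7 tested, 5 were higher. Endothelial markers (8 genes, all tested) summed to 78.2 to 242 CPM in non-senescent and 67.0 to 249 CPM in senescent PTEC, and 1 was lower. Among all genes tested in PTEC, 20.1% were higher and 19.7% lower in senescent cultures. The part of these cell types in the results below was not tested. Beyond this, fewer cells of a type and less RNA per cell cannot be told apart in bulk RNA.

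Senescent PTEC carried more RNA of most interferon-stimulated genes. Of the 41 members, 40 passed edgeR's filter, 31 were up-regulated and none was down-regulated. A call needed an adjusted p under 0.05 together with a log2 fold change beyond 0.5 in either direction. Over all 15434 genes tested, 20.1% were up-regulated and 19.7% down-regulated. The members' median log2 fold change was 1.399 (range -0.67 to 4.65), beside a median near 0 over all genes. Rises spanned from 1.63-fold for Ifit2 to 25.2-fold for Ifi44, and 26 of the 31 also passed a log2 fold change of 1. In 29 of the 41 members every senescent culture lay above every non-senescent culture, and in Irf1 every senescent culture lay below (background 21% and 20.8%). An unadjusted p under 0.05 was found for 33 members with a positive and 2 with a negative fold change, Irf1 and Oasl1 (background 51.6% in either direction). DESeq2 called 32 members up-regulated and none down-regulated, beside 11.5% and 10.7% of the 30570 genes it tested. It was run without a filter on low counts, so these shares cannot be compared with edgeR's. In number, it called 3506 genes up-regulated and edgeR 3100. The counts of limma-voom were also 32 and none, beside 20.7% and 18.9%.

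The cultures of a group were not alike. Senescent culture 1 had the highest value among senescent cultures in 36 of the 40 members with a mean of at least 1 CPM there. Non-senescent culture 1 had the lowest value of its group in 24 of 37. Without senescent culture 1, 27 members were up-regulated and the members' median was 1.32. Same-numbered cultures deviated together, and with the replicate number as a block 32 members were up-regulated (background 23.2%) and 1 was down-regulated (background 21.3%).

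**Figure D1:**
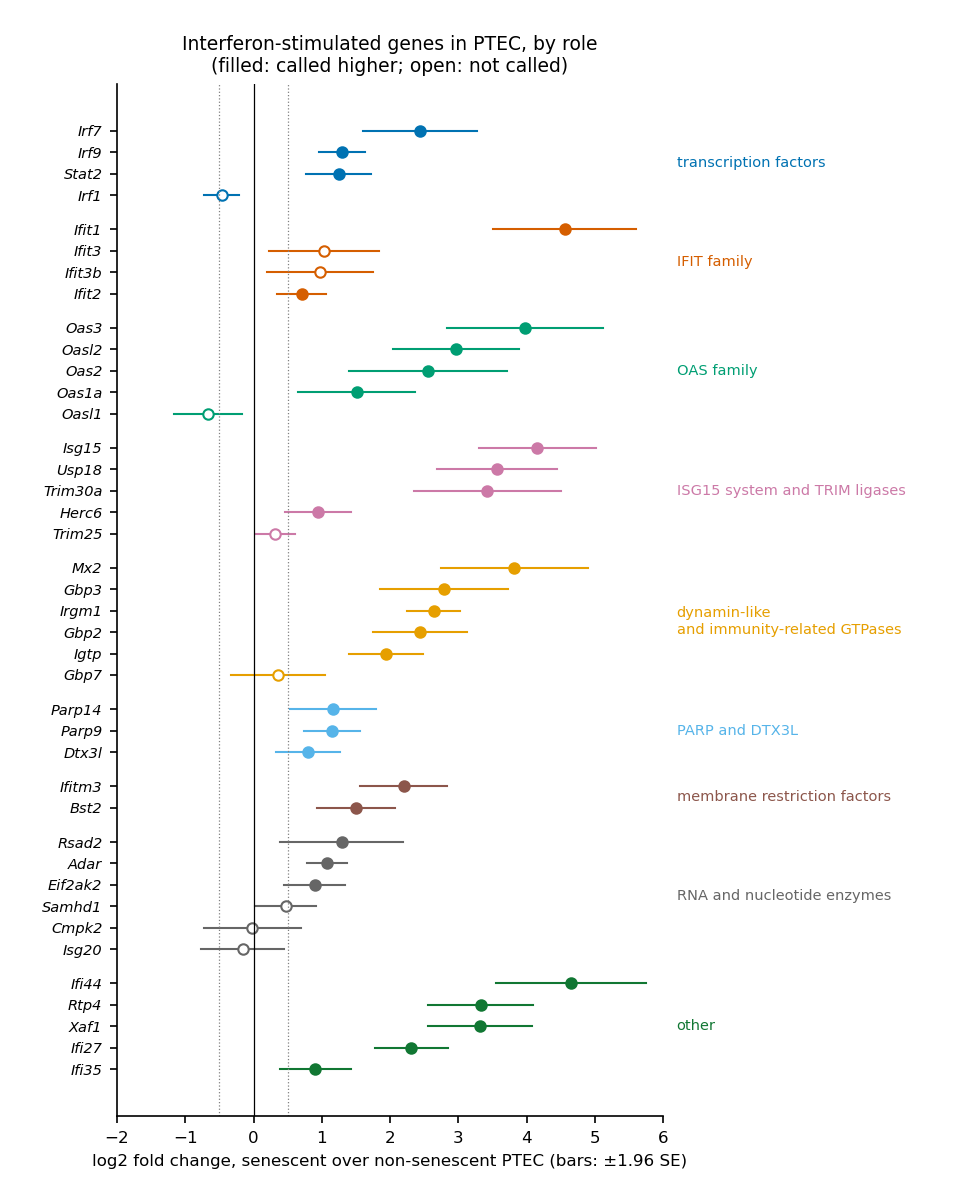
Log2 fold change of the 40 tested members between senescent and non-senescent PTEC (4 cultures each), grouped by role. Points are edgeR estimates, bars span 1.96 standard errors to each side, filled points were called higher, and dotted lines mark log2 fold changes of -0.5 and 0.5. Of the points, 31 are filled, and Ifi44 (4.65) and Ifit1 (4.56) lie furthest right.

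Among the transcription factors, 3 of 4 were up-regulated. Irf7, the factor that amplifies interferon production, was at 3.14, 9.54, 7.90 and 7.41 CPM in non-senescent cultures 1 to 4 and at 65.4, 28.7, 35.6 and 19.3 CPM in senescent cultures 1 to 4. The groups did not overlap, and senescent culture 1 was the highest. The log2 fold change came to 2.44 (standard error, SE, 0.43, adjusted p = 0.00155). Irf9 and Stat2, the subunits that give the response element complex its DNA binding and activation, rose by log2 fold changes of 1.30 and 1.25. Irf1, which is known to be induced through a gamma-activated sequence, went the other way. It was at 22.7, 24.2, 24.4 and 19.6 CPM in non-senescent and 16.2, 14.8, 18.1 and 15.1 CPM in senescent cultures, with a log2 fold change of -0.47 (SE 0.13, adjusted p = 0.0164), short of the fold threshold, which it passed without non-senescent culture 4 or senescent culture 3 (-0.53 and -0.51). Its promoter held no response element core but 1 TTCNNNGAA, shown in capitals in a stretch from 120 to 61 bases before the start.
Irf1, chr11:53769894-53769953, plus strand: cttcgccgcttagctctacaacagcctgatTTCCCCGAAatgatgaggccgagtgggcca

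The IFIT genes lie beside each other on chromosome 19, and the protein of Ifit1 binds viral RNA lacking the host's cap methylation. Ifit1 (chr19:34640871-34650009) was at 0.804, 1.86, 1.15 and 3.04 CPM in non-senescent cultures and at 77.6, 24.9, 30.8 and 25.0 CPM in senescent cultures. Every senescent culture was several times above every non-senescent one. This 23.5-fold rise (log2 fold change 4.56, standard error 0.54, adjusted p = 0.000171) was the second largest among the members. Ifit2, with a high level before senescence, was at 35.4, 32.9, 25.6 and 38.6 CPM in non-senescent and 68.7, 52.9, 43.1 and 46.6 CPM in senescent cultures. The groups were separate, with a log2 fold change of 0.71 (SE 0.18, adjusted p = 0.0117).

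Ifit3 and Ifit3b are near copies, and 40.7% of the 76-base stretches of the Ifit3 transcript, the length of a read, also occur in Ifit3b, so that their separate values are uncertain. Their promoters share an identical run of 70 bases with 2 matches to the core motif, shown here for that identity.
Ifit3, chr19:34583359-34583428, plus strand: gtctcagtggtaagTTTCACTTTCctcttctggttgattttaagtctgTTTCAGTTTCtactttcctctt
Ifit3b, chr19:34607755-34607824, plus strand: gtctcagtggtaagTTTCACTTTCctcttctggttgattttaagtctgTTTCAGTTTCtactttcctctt

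Ifit3 was at 56.1, 38.8, 156 and 97.2 CPM in non-senescent and at 253, 133, 186 and 124 CPM in senescent cultures. Non-senescent culture 3 was above senescent cultures 2 and 4. Ifit3 and Ifit3b had log2 fold changes of 1.03 and 0.98 and were not called (adjusted p = 0.0663 and 0.0722). Both were called without non-senescent culture 3 (log2 fold changes 1.48 and 1.37, adjusted p = 0.0102 and 0.0158). With the replicate number as a block both were called too (adjusted p = 0.0324 and 0.0388), and so they were with limma-voom (adjusted p = 0.0420 and 0.0466). DESeq2 called Ifit3 (adjusted p = 0.0492) and not Ifit3b (0.0609).

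**Figure D2:**
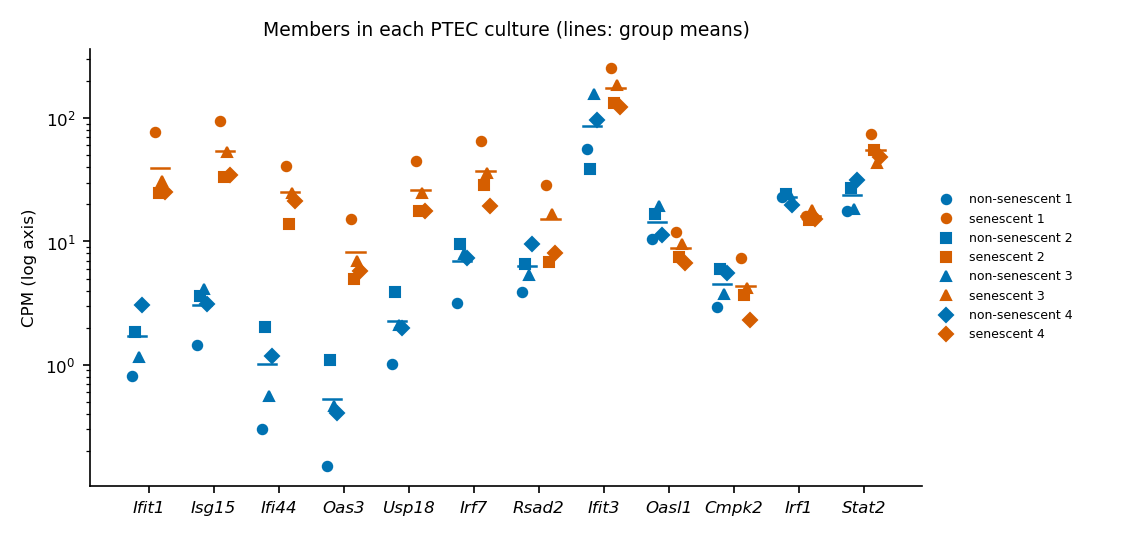
CPM (log axis) of 12 members in each of the 8 PTEC cultures, non-senescent in blue and senescent in orange, with a marker shape for each replicate number and lines at the group means. The groups are apart for Ifit1, Isg15, Ifi44, Oas3, Usp18, Irf7 and Stat2, Irf1 is lower in all senescent cultures, and Rsad2, Ifit3, Oasl1 and Cmpk2 overlap.

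The OAS genes encode enzymes that make oligoadenylate on double-stranded RNA and thereby activate RNase L, apart from Oasl1, which lacks this activity. Of the 5, 4 were up-regulated. Oas3 (chr5:120753098-120777661) was at 0.151, 1.10, 0.466 and 0.405 CPM in non-senescent and at 15.3, 4.93, 6.88 and 5.81 CPM in senescent cultures, from 77 and 1343 reads in all. The lowest senescent culture was above the highest non-senescent culture. Its log2 fold change was 3.98 (SE 0.58, adjusted p = 0.00057). Oasl2, Oas2 and Oas1a rose by log2 fold changes of 2.97, 2.56 and 1.51. The call of Oas1a was lost without non-senescent culture 4 or senescent culture 1 (adjusted p = 0.0512 and 0.0503), and 47.3% of its 76-base stretches also occur in Oas1g, so its own share of the reads is uncertain. Oasl1, known as a brake on Irf7 translation, was at 10.5, 16.7, 19.5 and 11.3 CPM in non-senescent and 11.8, 7.52, 9.54 and 6.74 CPM in senescent cultures. Only senescent culture 1 reached the non-senescent range. With a log2 fold change of -0.67 (SE 0.25, adjusted p = 0.0556) Oasl1 was not called, but it was called lower with the replicate block (adjusted p = 0.0357) and without non-senescent culture 1 or 4 or senescent culture 1 (log2 fold change -0.83 to -0.77, adjusted p = 0.0373 to 0.0456).

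The ubiquitin-like modifier ISG15 is attached to other proteins by HERC ligases and removed by USP18, which also dampens receptor signalling. Isg15 (chr4:156199424-156200818) was at 1.46, 3.61, 4.11 and 3.10 CPM in non-senescent and at 94.0, 33.3, 52.8 and 34.4 CPM in senescent cultures. All senescent cultures were far above the non-senescent ones, with a log2 fold change of 4.16 (SE 0.44, adjusted p = 8.74e-05), or 17.9-fold. Usp18 rose 11.9-fold, Trim30a 10.7-fold and Herc6 1.92-fold. Herc6 shares 22.3% of its 76-base stretches with Gm45193, so its own share of the reads is uncertain. Trim25, the ligase that promotes RIG-I signalling, was abundant in both groups, at 63.1, 75.4, 54.6 and 69.3 CPM in non-senescent and 95.5, 72.3, 73.7 and 78.5 CPM in senescent cultures. The groups overlapped, and its log2 fold change of 0.32 was not called (adjusted p = 0.0974).

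Of the 7 dynamin-like and immunity-related GTPases, which restrict viruses and intracellular microbes, 5 were up-regulated and 1 was not tested. Mx2 was at 0.0754, 0.209, 0.218 and 0.318 CPM in non-senescent and at 5.35, 1.73, 2.93 and 1.39 CPM in senescent cultures. The groups did not overlap, and the log2 fold change was 3.82 (SE 0.55, adjusted p = 0.000534). Gbp3, Irgm1, Gbp2 and Igtp rose by log2 fold changes of 2.79, 2.64, 2.44 and 1.94. Gbp7, whose promoter carries the motif shown above, was at 7.89, 11.4, 7.74 and 21.5 CPM in non-senescent and 21.8, 14.6, 11.3 and 13.3 CPM in senescent cultures. Non-senescent culture 4 was as high as the highest senescent culture, and Gbp7 was not called (log2 fold change 0.36, adjusted p = 0.434). Without that culture Gbp7 had a log2 fold change of 0.80 and was called (adjusted p = 0.037). Mx1, which is non-functional in C57BL/6 mice through a deletion, failed the filter with 14 reads over the non-senescent and 29 over the senescent cultures. It was at 0.0754, 0.0784, 0.0311 and 0.203 CPM in non-senescent and at 0.276, 0.129, 0.212 and 0.0803 CPM in senescent cultures. These ranges overlapped.

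PARP9 and DTX3L form a complex that modifies histones and ubiquitin, and PARP14 adds ADP-ribose to proteins of the interferon response. All 3 genes were up-regulated. Parp14 was at 16.7, 31.7, 11.4 and 27.8 CPM in non-senescent and 67.0, 40.2, 36.9 and 48.2 CPM in senescent cultures (log2 fold change 1.17, standard error 0.32, adjusted p = 0.0158). The groups were apart for Parp14 and also for Dtx3l, at 17.9, 24.9, 11.3 and 17.9 CPM in non-senescent and 40.6, 26.0, 26.3 and 29.8 CPM in senescent cultures (log2 fold change 0.80, standard error 0.24, adjusted p = 0.0218). Parp9 rose by a log2 fold change of 1.15. Parp9 and Dtx3l overlap head to head in 458 exonic bases on opposite strands, and whether the counting used strand is not given in the sources used here, so reads there cannot be assigned with certainty. The same holds for Adar, which overlaps Chrnb2 on the opposite strand in 1365 exonic bases. Dtx3l lost its call when non-senescent culture 1 or senescent culture 1 was left out (adjusted p = 0.053 and 0.0694).

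Both membrane restriction factors were up-regulated. IFITM3 hinders fusion of viruses in endosomes, and BST2 tethers budding virions. Ifitm3 was at 4.80, 12.8, 7.74 and 5.18 CPM in non-senescent and 44.3, 38.0, 29.1 and 25.3 CPM in senescent cultures, with no overlap (log2 fold change 2.20, standard error 0.33, adjusted p = 0.000645). Bst2 was at 24.1, 44.5, 59.5 and 36.4 CPM in non-senescent and 129, 74.5, 147 and 105 CPM in senescent cultures, also with no overlap. Its log2 fold change was 1.498 (SE 0.29, adjusted p = 0.00271).

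Enzymes acting on RNA and nucleotides were the role with the smallest median, 0.68, and 3 of 6 were up-regulated. Adar, the editor of adenosines in double-stranded RNA, and Eif2ak2, the kinase PKR, rose by log2 fold changes of 1.08 and 0.89. Rsad2 encodes viperin, which makes a chain-terminating nucleotide. It was at 3.90, 6.51, 5.32 and 9.52 CPM in non-senescent and 28.9, 6.84, 16.8 and 8.05 CPM in senescent cultures, so senescent cultures 2 and 4 lay within the non-senescent range. Its call (log2 fold change 1.29, standard error 0.46, adjusted p = 0.0449) was lost with the replicate block (adjusted p = 0.124), with limma-voom (0.0777), with no filter (0.0965) and in 5 of the 8 fits without 1 culture, those without non-senescent culture 1, 2 or 3 or senescent culture 1 or 3 (adjusted p up to 0.152). Without senescent culture 1 the log2 fold change was 0.78. Cmpk2, the neighbour of Rsad2 on chromosome 12 and the kinase that supplies it with CTP, was at 2.92, 5.96, 3.76 and 5.50 CPM in non-senescent and 7.38, 3.69, 4.16 and 2.33 CPM in senescent cultures. The groups overlapped fully (log2 fold change -0.02, standard error 0.36, adjusted p = 0.977). Samhd1 and Isg20, a dNTPase and an exonuclease, had log2 fold changes of 0.47 and -0.16 and were not called (adjusted p = 0.124 and 0.711), although Samhd1 was called without senescent culture 3 (0.62, adjusted p = 0.0404).

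The 5 remaining members were all up-regulated, and Ifi44 had the largest log2 fold change of the 40. It was at 0.302, 2.01, 0.560 and 1.19 CPM in non-senescent and 40.7, 13.9, 24.9 and 21.3 CPM in senescent cultures. The groups were well apart, with a log2 fold change of 4.65 (SE 0.56, adjusted p = 0.000202). Rtp4 and Xaf1 rose 10.1-fold and 10.0-fold, and Ifi27 rose 4.97-fold. Ifi35 was at 11.7, 12.6, 25.3 and 14.7 CPM in non-senescent and 35.7, 25.0, 33.9 and 22.9 CPM in senescent cultures. Non-senescent culture 3 was above senescent cultures 2 and 4. Its call (log2 fold change 0.90, standard error 0.27, adjusted p = 0.0208) was lost in 4 of the 8 fits without 1 culture, those without non-senescent culture 1, 2 or 4 or senescent culture 1 (adjusted p up to 0.0612).

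The ligands that start the pathway were hardly seen. Of 21 interferon genes, none passed the filter, and Ifnb1, which encodes interferon beta, had no read in any of the 17 libraries. In non-senescent PTEC 20 of the 21 were at 0 in every culture, and in senescent PTEC 14 were. Summed over the 21 genes, the level was 0 to 0.0579 CPM in non-senescent and 0.0535 to 0.234 CPM in senescent cultures. The 7 genes with reads in senescent cultures had between 1 and 9 reads each over the 4 cultures. RNA without a poly(A) tail would not have been captured, and interferon made earlier in the culture was not measured.

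Of the 6 receptor chains and 3 receptor kinases tested, none was called with edgeR, and log2 fold changes lay between -0.45 and 0.42. An unadjusted p under 0.05 was found for 3 of these 9 genes, a share below that of all genes (background 51.6% in either direction). They were Ifnar2 (0.42, adjusted p = 0.0178), Il10rb (0.28, adjusted p = 0.0701) and Tyk2 (-0.45, adjusted p = 0.017). Ifnar2 and Tyk2 fell short of the fold threshold only. The alpha receptor chain Ifnar1 was at 65.8 to 88.4 CPM in non-senescent and 78.9 to 91.3 CPM in senescent cultures. Of 6 feedback genes, Socs3, an inhibitor of receptor kinases, fell by 1.12 on the log2 scale (adjusted p = 0.00089), and Cish rose by 0.63 (adjusted p = 0.0368), a call lost without non-senescent culture 1 or 2 or senescent culture 1, 2 or 3 (adjusted p up to 0.0898).

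Of 19 tested genes for nucleic acid sensing, 4 were up-regulated and 4 down-regulated, shares close to the 20.1% and 19.7% of all genes. The higher ones were Zbp1, Dhx58, Ifih1 (MDA5) and Ddx58 (RIG-I), with log2 fold changes of 3.59, 2.11, 1.21 and 1.07. These are themselves known to be interferon-inducible. The lower ones were Irf8, Rnaseh2b, Tmem173 (STING) and Myd88, with log2 fold changes of -1.33, -0.998, -0.91 and -0.53. The call of Myd88 was lost without non-senescent culture 3 or senescent culture 4 (adjusted p up to 0.0667). Tmem173 was at 8.80, 12.5, 10.98 and 14.6 CPM in non-senescent and 4.67, 5.40, 7.71 and 6.58 CPM in senescent cultures, with no overlap. Cgas, the DNA sensor, had a log2 fold change of -0.79 and was not called (adjusted p = 0.0654). With the replicate block 7 sensing genes were down-regulated, Cgas, Rnaseh2a and Rnaseh2c being called besides the 4.

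A second list of 51 other interferon-inducible genes showed 24 up-regulated and 1 down-regulated among 40 tested (background 20.1% and 19.7%). This list was written with earlier results of these data known, so its count is not independent support for that of the members. The median log2 fold change of the tested genes was 1.18. The largest rises were those of Tgtp1, an immunity-related GTPase (4.96), and the apolipoprotein L genes Apol9a (4.54) and Apol9b (4.48). The smallest were those of Znfx1 (0.60), Parp12 (0.68) and Uba7 (0.86), of which Znfx1 and Uba7 lost their calls in 5 and 3 of the 8 fits without 1 culture, among them those without culture 1 of either group and senescent culture 2. Sp110 lost its call in 7 of the 8 fits (adjusted p up to 0.138), and Ifi204 without senescent culture 1. Slfn9 fell by 2.10 on the log2 scale (adjusted p = 0.00242), with 4.60 to 14.96 CPM in non-senescent and 1.11 to 2.99 CPM in senescent cultures. The chemokine Cxcl10 was at 6.68 to 8.77 CPM in non-senescent and 1.55 to 6.46 CPM in senescent cultures and was not called (log2 fold change -0.95, adjusted p = 0.0512). It was called lower with DESeq2 size factors, DESeq2, limma-voom, no filter, the replicate block and without senescent culture 3 (adjusted p = 0.019 to 0.0492).

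**Figure D3:**
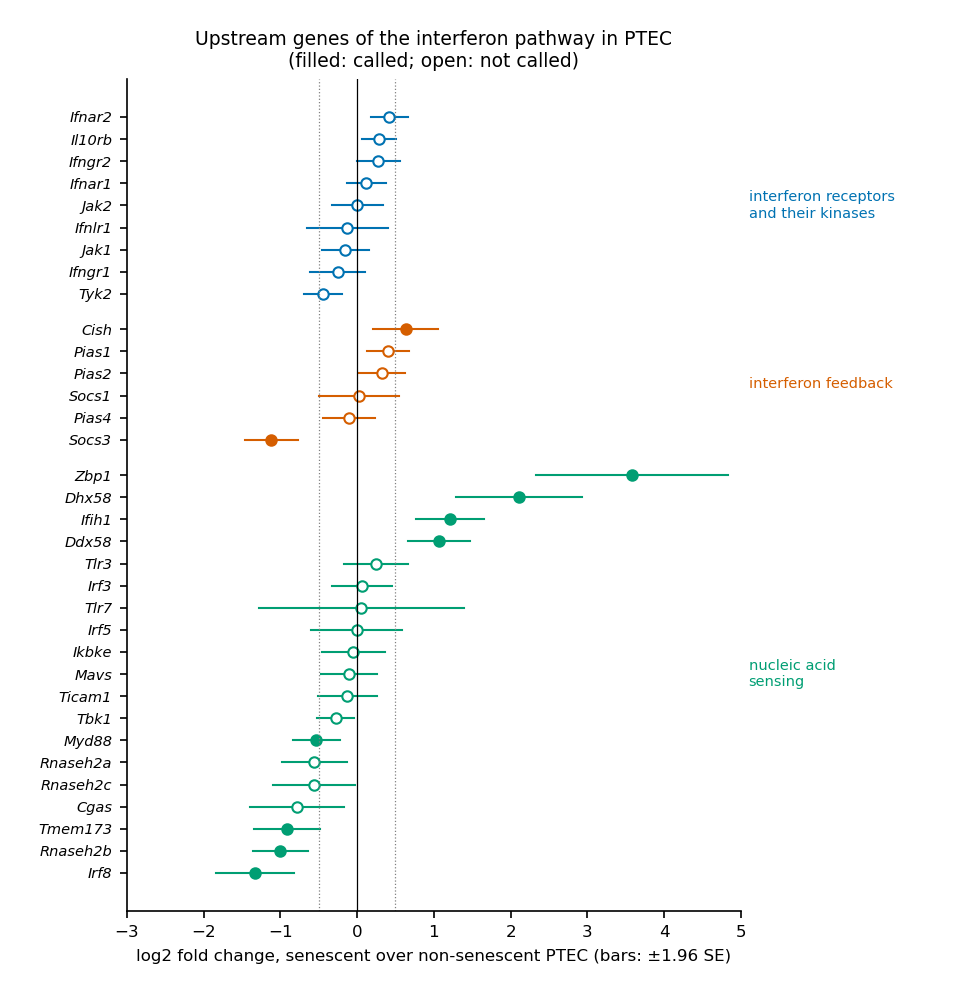
Log2 fold change between senescent and non-senescent PTEC (4 cultures each) of genes for interferon receptors and their kinases, feedback and nucleic acid sensing. Points are edgeR estimates, bars span 1.96 standard errors to each side, filled points were called, and dotted lines mark -0.5 and 0.5. All 9 receptor and kinase points are open, and sensing genes are filled on both sides of 0.

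In whole kidneys the members differed far less with age. Between 24 and 3 months all 41 were tested, 1 was up-regulated and none was down-regulated, beside 1.89% up-regulated and 0.451% down-regulated of all 17067 genes. Of the members, 33 of 41 were above 0, and the median log2 fold change was 0.20 (range -0.55 to 1.75), or -0.03 without 24-month kidney 2. An unadjusted p under 0.05 was found for 8 members, all higher at 24 months (background 18.2% in either direction). In 8 members all 24-month kidneys were above all 3-month kidneys, and in none was it the reverse (background 12.7% and 9.15%). The 3-month kidneys had been counted on another gene set than the 12- and 24-month kidneys, so that gene set and age cannot be told apart in comparisons with 3 months. Among the members, the gene models of Isg15 and Mx1 differ in version between these sets.

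The called member was Oas3. It was at 0.511, 0.583 and 0.301 CPM in the 3-month kidneys, at 0.437, 0.283 and 0.357 CPM at 12 months and at 1.55, 1.77 and 1.46 CPM at 24 months. All 24-month kidneys were above all younger ones, on 76 to 94 reads per 24-month kidney and 11 to 23 reads per younger kidney. Its log2 fold change was 1.75 (SE 0.30, adjusted p = 0.0217) over 3 months and 2.14 (SE 0.31, adjusted p = 0.0196) over 12 months. With 1 kidney left out in turn, the call over 3 months was lost in 5 of 9 fits, those without any 24-month kidney or without 3-month kidney 1 or 3 (adjusted p up to 0.101), and over the 9 fits the log2 fold change was 1.52 to 1.95. Over 12 months it was lost without any of the 6 kidneys compared (adjusted p up to 0.105), at log2 fold changes of 2.0 to 2.30 over the 9 fits.

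Oasl1 and Oasl2 were also separate between 24 and 3 months without a call. Oasl1 was at 2.01, 1.87 and 2.0 CPM at 3 months, 2.38, 1.15 and 1.33 CPM at 12 months and 3.43, 5.76 and 3.18 CPM at 24 months (log2 fold change over 3 months 1.04, adjusted p = 0.144). Oasl2 was at 5.81, 6.05 and 6.11 CPM, then 7.27, 4.75 and 6.00 CPM, then 9.65, 13.3 and 9.12 CPM (log2 fold change 0.81, adjusted p = 0.0831). Every 24-month kidney exceeded every younger kidney for both genes. Parp14 was also higher at 24 months than in every younger kidney, at 7.70, 10.1 and 8.03 CPM at 3 months and 16.9, 14.99 and 11.2 CPM at 24 months (log2 fold change 0.71, adjusted p = 0.0883). DESeq2 called Oas3, Oasl2 and Parp14 higher, 3 members, beside 2.42% of the 30029 genes it tested without a filter on low counts. With the replicate block no member was called, beside 0.598% of genes higher and 0.141% lower.

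Between 12 and 3 months none of the 41 was called with edgeR, DESeq2 or limma-voom, beside 1.22% up-regulated and 1.36% down-regulated of all genes, and 31 had a log2 fold change below 0 (median -0.22, and -0.09 without 3-month kidney 3). An unadjusted p under 0.05 (background 16.5%) was found for 3 members, Ifit1, Ifit3 and Ifit3b, with log2 fold changes of -1.04, -0.77 and -0.49. Ifit1 was at 7.60, 6.21 and 11.6 CPM at 3 months and 4.63, 4.63 and 3.26 CPM at 12 months. All 12-month kidneys were below all 3-month kidneys for these 3 of 41 members, and above them for 2, Parp9 and Parp14, shares below those of all genes (background 8.88% and 11.4%).

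Between 24 and 12 months, counted on the same gene set, 37 of 41 members were above 0, and the median log2 fold change was 0.40, or 0.23 without 24-month kidney 2. Oas3 was again the only one up-regulated (background 0.896%), and 12 members had an unadjusted p under 0.05, all higher at 24 months (background 15.2% in either direction). DESeq2 called 5 members higher and none lower, beside 1.64% and 0.952% of the 30029 genes it tested without a filter on low counts. In 11 members the 24-month kidneys were all above the 12-month kidneys, and in Parp9 all below (background 13.5% and 11.8%). Deviations of same-numbered kidneys of these ages, which are different mice, correlated (r 0.172 to 0.557). Kidney 3 at 12 months and kidney 1 at 24 months correlated too (0.270), so the numbers do not single out pairs. A fit of these 6 kidneys with the replicate number as a block, chosen after seeing this, called 11 members higher and none lower, beside 7.77% and 5.41% of all genes. These were Oas3, Oasl1, Oasl2, Oas1a, Ifit1, Ifit2, Ifit3, Ifit3b, Irgm1, Bst2 and Ifi27, with log2 fold changes from 0.54 (Bst2) to 2.15 (Oas3). All 4 IFIT genes were among them. Ifit1 was at 5.60, 13.1 and 8.41 CPM at 24 months, above the 12-month range of 3.26 to 4.63 CPM, with a log2 fold change of 1.05 (SE 0.23, adjusted p = 0.0171) in that fit and 1.11 (adjusted p = 0.169) without the block. A block over all 9 kidneys called no gene between these ages.

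**Figure D4:**
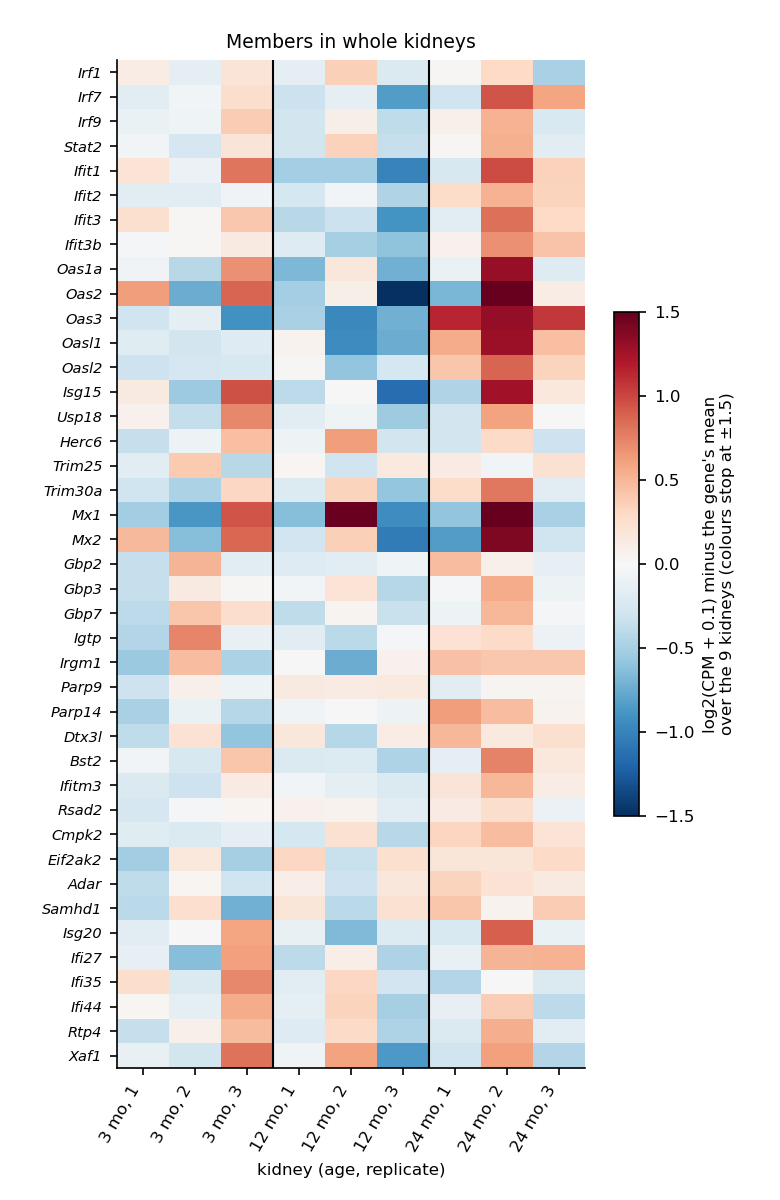
Log2(CPM + 0.1) of all 41 members in each of the 9 kidneys, as the difference from the gene's mean over the kidneys, with colours cut at -1.5 and 1.5. The column of 24-month kidney 2 is red for most members, and 12-month kidney 3 is blue for Ifit1, Oas2 and Isg15.

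Single kidneys stood out within their age. Of 39 members with a mean of at least 1 CPM at 24 months, 30 were highest in 24-month kidney 2, and it was the highest of all 9 kidneys in 21 of 38 members. Within the other ages, 3-month kidney 3 was highest in 25 of 38 members and 12-month kidney 2 in 21 of 37. Isg15 was at 3.71, 12.3 and 5.72 CPM in the 24-month kidneys 1 to 3, at 5.62, 3.47 and 9.94 CPM at 3 months and at 3.86, 5.11 and 2.26 CPM at 12 months. Its ages overlapped (log2 fold change of 24 over 3 months 0.16, adjusted p = 0.862), and kidney 3 was the highest at 3 months. Mx1 was at 0.224, 0.152 and 0.794 CPM at 3 months, 0.197, 1.19 and 0.143 CPM at 12 months and 0.208, 1.32 and 0.231 CPM at 24 months, so that 1 kidney of each age was well above the others. The GTPases Igtp, Gbp2 and Irgm1 had another pattern and were highest at 24.3, 18.1 and 17.5 CPM in 3-month kidney 2. Without 24-month kidney 2 the members' median between 24 and 3 months was -0.03 in place of 0.20. Oas3 then had a log2 fold change of 1.67 and was not called (adjusted p = 0.0711). Its call was also lost without either other 24-month kidney.

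Leukocyte markers also differed between the kidneys. Their summed level (12 genes) was 151 to 161 CPM at 3 months, 194 to 198 at 12 months and 201 to 264 at 24 months. Macrophage markers (13 genes) were at 196 to 283, 286 to 306 and 297 to 372 CPM. B and plasma cell markers (8 genes) were at 8.56 to 20.2, 61.3 to 285 and 143 to 959 CPM, with the highest value in 24-month kidney 2. None of the 8 genes was at 0 in any kidney. T and NK cell markers (13 genes) were at 5.21 to 7.55, 9.57 to 17.3 and 11.6 to 16.1 CPM, and 3 of 12 tested were higher at 24 than at 3 months. Neutrophil markers (7 genes) were highest within each age in 3-month kidney 3 (13.8 CPM), 12-month kidney 2 (3.43 CPM) and 24-month kidney 2 (20.1 CPM), with 0.785 to 11.7 CPM in the other 6 kidneys. Markers of plasmacytoid dendritic cells (5 genes) were highest within each age in the same kidneys, at 30.1, 4.59 and 12.9 CPM, with 2.36 to 22.1 CPM in the other 6. Fibroblast and pericyte markers (8 genes) were at 198 to 232, 236 to 256 and 280 to 325 CPM at 3, 12 and 24 months, with no overlap between ages. Proximal tubule markers (12 genes) summed to 56750 to 57570, 60130 to 64070 and 48780 to 54930 CPM, lowest at 24 months. Taken singly, however, 10 of these 12 genes were above 0 between 24 and 3 months and 2 below (median log2 fold change 0.64). Endothelial markers (8 genes) were at 363 to 482, 537 to 623 and 337 to 631 CPM. Between 24 and 3 months, 1 of 12 leukocyte, 1 of 13 macrophage, 4 of 8 B and plasma cell and 4 of 12 proximal tubule genes were called higher. No gene was called among the fibroblast and pericyte, endothelial, neutrophil (4 tested) or plasmacytoid dendritic cell markers. There edgeR gave an unadjusted p under 0.05 for 4, 1, 1 and 0 genes (background 18.2% in either direction). For leukocyte, macrophage, T and NK cell, and B and plasma cell genes the numbers were 5, 8, 7 and 6, all higher at 24 months. Of the proximal tubule genes 7 had such a p, 5 higher and 2 lower. No gene of these lists was called lower. The part of all these cells in the members' values was not tested. Of the upstream lists, 1 of 20 tested sensing genes was called between 24 and 3 months, Irf8 (log2 fold change 1.09, adjusted p = 0.00685), and of the other inducible genes 1 of 49, the lymphocyte and macrophage chemokine Ccl5 (1.56, adjusted p = 0.0212). Irf8 lost its call without 3-month kidney 1 (adjusted p = 0.0573), and Ccl5 without 24-month kidney 1 or 3 or 3-month kidney 1 or 3 (adjusted p up to 0.113). Of all genes, 1.89% were higher. Of the 6 feedback genes none was called, and 1, Socs3, had an unadjusted p under 0.05 (background 18.2%). Socs3 was called with DESeq2, without a filter on low counts and without 24-month kidney 3 (adjusted p = 0.000627, 0.0206 and 0.04998).

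The change in PTEC was then set against the change with age in one fit of all 17 libraries, as the PTEC log2 fold change minus that of 24- over 3-month kidneys. The difference was called above 0 for 22 of 41 members and below 0 for 1, beside 11.6% and 12.2% of all 17999 genes tested, and its median was 1.24. It was largest for Ifi44 (4.86), Ifit1 (4.47) and Isg15 (3.98). Ifit1 rose 23.5-fold in senescent PTEC and had a log2 fold change of 0.07 (SE 0.34) in kidneys. Oasl1 was the member with the opposite difference (-1.74, standard error 0.43, adjusted p = 0.00767), at log2 fold changes of -0.67 in PTEC and 1.04 in kidneys. Oas3 was called higher in both settings, and its rise was larger in PTEC by 2.21 (SE 0.70, adjusted p = 0.0307). With 1 library left out in turn, the difference lost its call in 11 of 17 fits for Stat2, in 8 for Bst2 and in 5 for Oas3, and in 1 each for Irf7 (without 24-month kidney 1) and Ifi35 (without 3-month kidney 3). No RNA and nucleotide enzyme was called in this test. For Samhd1 the difference was -0.06 (SE 0.37).

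**Figure D5:**
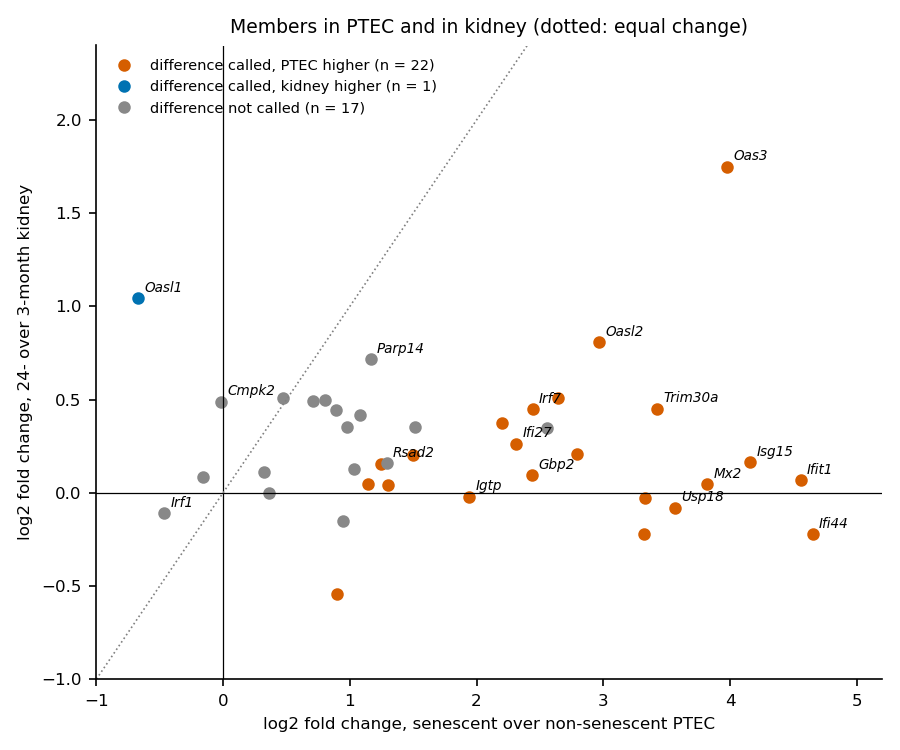
Log2 fold change of the 40 members tested in both, in senescent over non-senescent PTEC (4 cultures each, x axis) and in 24- over 3-month kidneys (3 mice each, y axis). Colour gives the call of the difference between them in one fit, and the dotted line marks equal change. The 22 members with a larger change in PTEC lie below the dotted line, and Oasl1 (-0.67 and 1.04) lies alone at the upper left.

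Levels compared between genes per kilobase of exon showed which members made up most of the signal. In non-senescent PTEC, Ifit3 (49.9 CPM per kb) and Bst2 (45.6) led, and in senescent PTEC, Bst2 (126), Ifi27 (102), Ifit3 (99.8), Isg15 (70.9) and Ifitm3 (50.4). Isg15 moved up from 4.06 CPM per kb in non-senescent PTEC. In kidneys of all ages Ifitm3 was the most abundant member, at 58.9, 58.7 and 77.8 CPM per kb at 3, 12 and 24 months, followed by Ifi27 at 30.2, 25.0 and 36.9 and Bst2 at 17.2, 13.4 and 20.2. Ifit1 was at 0.645 and 14.9 CPM per kb in non-senescent and senescent PTEC and at 3.19, 1.57 and 3.41 in kidneys. Its level in kidneys of every age thus lay between those of the PTEC groups. Rsad2 and Cmpk2, in contrast, were higher in every kidney than in any culture, at 30.0 to 42.7 CPM against 3.90 to 28.9 CPM for Rsad2 and at 13.4 to 24.8 CPM against 2.33 to 7.38 CPM for Cmpk2.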

How the data were processed

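Raw counts per gene, deposited by the authors without normalization, were used for 8 PTEC cultures and 9 kidneys. Libraries were stranded and selected for poly(A), and the authors sequenced paired reads of 76 bases on a NextSeq 550 and used nf-core/rnaseq 1.4.2 with GRCm38 and GENCODE M 18. The aligner, counter and strand setting are not given in the sources used here. Tables held 53715 (PTEC), 54146 (3 months) or 55401 (12 and 24 months) identifiers, although the methods name only GENCODE M 18. The detailed library methods describe a pool of 9 libraries. Symbols, positions and lengths came from GENCODE M 21.

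Counts were tested with edgeR 4.0.16 in R 4.3.3 (TMM, filterByExpr, robust quasi-likelihood test, Benjamini-Hochberg adjustment over all genes tested), and adjusted p-values are edgeR's unless another tool is named. PTEC and kidneys were fitted apart, except in the fit of all 17 libraries that gave the difference between their changes. Called means adjusted p under 0.05 and absolute log2 fold change above 0.5. DESeq2 1.42.0, limma 3.58.1, other scalings, filters, thresholds, a replicate block and left-out libraries were alternatives. Tables and figures used Python 3.11.15, pandas 2.3.3 and matplotlib 3.10.9. The procedure was tested on simulated data.

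Deviations from group means correlated between same-numbered PTEC (r 0.186 to 0.614, 4 pairs) and 12- and 24-month kidneys (0.172 to 0.557, 3 pairs). Fits with these numbers as a block were therefore run as alternatives. Differently numbered samples also reached r 0.265 in PTEC (non-senescent 2, senescent 1) and 0.270 in kidneys (12-month 3, 24-month 1). Same-numbered kidneys did not correlate between 3 and 12 months (-0.701 to -0.049), whereas 3-month kidney 3 and 12-month kidney 2 did (0.747). In kidneys the numbers thus do not single out pairs.

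Members and lists were chosen with earlier results of these data known. Values per sample are given for the extreme members of each role in PTEC, members called in kidneys, members that fell in PTEC and members not tested. Isg20, which was lowest in its role, is an exception. Some withheld genes are not reported here.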

Additional observations from a re-analysis of the deposited data

Results flagged for a closer look

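Within the groups of 4 PTEC cultures, 82 groups of values (41 members, 2 groups) were searched for a culture far from the others, by its gap to the nearest value over the range. Chance alone marks about 1 in 20 such groups. In 4 of them a culture was marked, all through a high value in senescent culture 1. Ifit1 was at 77.6 CPM there and at 24.9 to 30.8 CPM in the other senescent cultures. Oasl2 was at 42.3 CPM, beside 14.5 to 18.8. Trim30a was at 22.8 CPM, beside 10.8 to 11.5. Parp9 was at 64.9 CPM, beside 42.1 to 44.8. All 4 genes were called higher in senescent PTEC without that culture too.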

How the results depend on the processing

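In PTEC, 27 to 32 members were called higher and 0 to 2 lower with 1 culture left out. One member was called lower with no fold threshold (1, Irf1), with no filter and with the replicate block (1 each, Oasl1). Cmpk2 changed sign, to 0.004 with a filter of 1 CPM and 0.034 with upper quartile scaling, and without 1 culture Cmpk2 ranged from -0.38 to 0.19 and Isg20 from -0.34 to 0.19. Between 24 and 3 months, 3 members were called higher with DESeq2, 0 with the replicate block and 0 to 1 with 1 kidney left out. Between 24 and 12 months, 5 were called higher with DESeq2, 0 with the replicate block over 9 kidneys, 11 with it over 6 kidneys and 0 to 1 with 1 kidney left out. The cause was not tested. Among the members, the replicate block changed no PTEC call other than those of Rsad2, Ifit3, Ifit3b and Oasl1. Low counts limit Oas3, Oas2, Mx1 and Mx2 in kidneys most.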

Other observations

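Feedback genes of the interferon receptors varied between single kidneys. Socs3 was at 3.13, 1.49 and 2.46 CPM in the 3-month kidneys, 2.86, 2.89 and 2.88 CPM at 12 months and 7.02, 14.1 and 4.87 CPM at 24 months. All 24-month kidneys were above all younger ones, with kidney 2 the highest, and the log2 fold change of 1.85 over 3 months was not called (adjusted p = 0.0549), although it was with DESeq2, with no filter and without 24-month kidney 3. Without 24-month kidney 2 it was 1.31. Cish, a target of STAT5, was at 73.8, 123 and 109 CPM at 3 months, at 16.1, 11.1 and 64.9 CPM at 12 months and at 12.0, 116 and 19.5 CPM at 24 months. The highest kidney of the 24-month group was thus within the 3-month range and the others far below it (log2 fold change -1.07, adjusted p = 0.493).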
